A study of Homo sapiens with 24 samples.

Results

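PI3K, AKT and FOXO1 pathway genes were examined in the super-enhancer table of wild-type OCI-Ly7 cells. The 9 genes were PIK3CD, PIK3CG, PIK3R1, PIK3AP1, INPP5D, AKT1, SGK1, FOXO1 and FOXO3, of 19970 protein-coding genes annotated on chromosomes 1 to 22 and X. A super-enhancer region was assigned to a gene when it overlapped the gene body extended by 50 kb on each side, in GENCODE version 44 on hg38. By this rule 10 of the 2615 deposited regions were assigned, to 5 of the 9 genes: 3 to PIK3AP1, 3 to FOXO1, 2 to PIK3CD, 1 to INPP5D and 1 to SGK1. PIK3R1, PIK3CG, AKT1 and FOXO3 had none, and their nearest regions are given instead.

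OCI-Ly7 is a line grown from human diffuse large B-cell lymphoma with germinal center B-cell features. CUT&RUN, which cuts and sequences the DNA beside an antibody-bound histone mark, was performed on isogenic clones of it. The 24 libraries covered 3 histone marks (H3K27ac, H3K4me1 and H3K4me3) in 4 genotypes with 2 replicates each: WT, CREBBP R1446C (C, with an inactive acetyltransferase domain), KMT2D-KO (K) and both lesions together (CK). Clones were grown from single cells after CRISPR editing, and WT refers to control clones that had not been edited. All clones share the background of this lymphoma line, and the control of a gene in it need not be that of a normal B cell. The values below came from the H3K27ac WT group alone, as 1 column in which the authors combined both libraries. No value therefore has a replicate error, none of the differences below could be tested, and the other 22 libraries were not analysed here.

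Class I phosphoinositide 3-kinases (PI3K) phosphorylate a membrane lipid after antigen receptor and coreceptor signals, and the product recruits and activates the kinase AKT. The lipid phosphatase SHIP1, encoded by INPP5D, removes a phosphate from this product. Active AKT and the related kinase SGK1 phosphorylate FOXO transcription factors, which then leave the nucleus. In the germinal center, FOXO1 is active in dark zone B cells and PI3K signalling is characteristic of light zone B cells. H3K27ac marks active promoters and enhancers, and super-enhancers are stretches in which many enhancer peaks lie close together and carry a high summed signal.

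The table listed signals from 10621 to 170185 with a median of 19736, all above its cutoff of 10617. The signal was used as a relative value within this table, since its unit was not stated. The fixed marker lists were checked against the label of the cells, beside the 30.7% of all protein-coding genes that had a region within 50 kb. A region lay within 50 kb of 6 of 8 B cell markers and 6 of 6 germinal center B cell markers. The same was true of 1 of 7 T cell markers (CD28), 1 of 6 myeloid markers (CSF1R) and 2 of 8 markers of other tissues (APOA1 and EPCAM).

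Sequences are shown at the starts of PIK3CD and INPP5D, which lay inside their own regions, and for 2 outermost peaks that face the start of FOXO1 or PIK3AP1. The constituent peaks behave as windows of 401 bp: their summed length could be divided by 401 bp without remainder in 2609 of 2615 regions, and the only region with 1 constituent spanned 401 bp. The edge of a stitched region is thus the edge of its outermost window, and the central 201 bases of the window facing the start site are shown for the intronic FOXO1 region and for the dense PIK3AP1 region. For PIK3CD the 250 bases before the start from the RefSeq promoter table (GRCh38.p14) are shown, because this start lies inside a region. For INPP5D, whose start also lies inside a region, 30 bases are shown. Capitals mark the letters of the motifs searched, and all sequences are written 5′ to 3′ on the strand of the gene in hg38.

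PIK3CD promoter (chr1:9651481-9651730, plus strand): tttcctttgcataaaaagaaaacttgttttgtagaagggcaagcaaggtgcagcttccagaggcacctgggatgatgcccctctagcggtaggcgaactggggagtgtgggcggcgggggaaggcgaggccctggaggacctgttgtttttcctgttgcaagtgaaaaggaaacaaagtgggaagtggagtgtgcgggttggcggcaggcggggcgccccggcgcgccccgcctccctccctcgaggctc
INPP5D before the start (chr2:233060268-233060297, plus strand): gtttctgtaatGAGGAAGTtctccgcagct
FOXO1 intron (chr13:40635329-40635529, minus strand): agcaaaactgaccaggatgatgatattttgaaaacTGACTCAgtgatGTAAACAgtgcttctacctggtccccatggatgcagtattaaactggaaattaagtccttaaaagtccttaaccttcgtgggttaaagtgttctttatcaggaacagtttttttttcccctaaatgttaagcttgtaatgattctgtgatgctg
PIK3AP1 upstream (chr10:96727032-96727232, minus strand): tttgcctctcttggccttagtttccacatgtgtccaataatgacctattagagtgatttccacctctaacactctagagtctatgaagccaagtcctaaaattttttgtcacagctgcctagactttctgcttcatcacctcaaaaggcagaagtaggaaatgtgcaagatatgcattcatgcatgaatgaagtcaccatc

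The motifs were FOXO (GTAAACA), AP-1 (TGACTCA), PU.1 (GAGGAAGT), ETS (CCGGAAG) and the E-box (CACGTG), searched on both strands. The printed FOXO1 intron window held 1 FOXO and 1 AP-1 match, which did not overlap. Of 8 such windows searched, 1 for each region without the start of its own gene, it was the only one with a match to any of the motifs. Its centre lay 31.2 kb from the FOXO1 start. The printed INPP5D stretch was cut around the only match in the 250 bases before that start, a PU.1 match, with 55 bases between the match and the start. The printed PIK3CD promoter held no match to any of the 5 motifs, and neither did the printed PIK3AP1 window. Of 5 stretches of 31 bases taken from each of the FOXO1 intron and PIK3AP1 windows, 0 occurred more than once on chromosomes 1 to 22 and X. A match is a description of letters only, and its absence says nothing of a factor.

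PIK3CD encodes the p110 delta catalytic subunit, the main class I catalytic subunit of lymphocytes. It is ENSG00000171608.18 at chr1:9629889-9729114 on the plus strand, 99.2 kb long. Its strongest region, at chr1:9717694-9904853, ranked 108 with a signal of 64794, or 6.10 times the cutoff. This was the highest signal of the 10 regions and the only one in the top 10% of the table. The region was 187 kb long with 58 constituents, at the 97.3 percentile of length and the 97.8 percentile of constituent number. Its signal per bp was 0.346, at the 51.1 percentile and close to the table median of 0.343.

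The overlap with PIK3CD was the 3′ part of the gene. The region began 66.0 kb downstream of the start and covered exons 9 to 24 of 24, an overlap of 11.4 kb that made up 11.5% of the gene but 6.10% of the region. The rest lay over CLSTN1, whose start it contained, and CTNNBIP1, which encodes an inhibitor of beta-catenin. By sequence class 79.3% of the region was intronic, 7.74% exonic and 13.0% outside protein-coding genes. Gene links here rest on distance alone, and a region shared by several genes could not be assigned to any 1 of them.

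The second PIK3CD region, at chr1:9599655-9663469, contained the start of the canonical transcript and ranked 1476. Its signal was 17925, or 1.69 times the cutoff, over 63.8 kb with 12 constituents. The signal per bp of 0.281 was at the 34.7 percentile. It covered 33.6 kb of PIK3CD, or 33.8% of the gene, with exon 1, and overlapped TMEM201 and the antisense transcript PIK3CD-AS1. Of the 3 RefSeq starts of PIK3CD 1 lay in this region, and the other two lay 26.1 and 26.2 kb from the nearest region. A gap of 54.2 kb inside the gene separated both regions.

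PIK3AP1 encodes BCAP, an adaptor that links B-cell receptor signals to PI3K. It is ENSG00000155629.15 at chr10:96593315-96720514 on the minus strand, 127.2 kb long. The strongest of its 3 regions, at chr10:96596399-96666338, ranked 583 with a signal of 32494 over 69.9 kb, and its 24 constituents gave 0.465 per bp. It lay wholly in the gene, covered 55.0% of it with exons 3 to 16 of 17, and was 96.2% intronic. Although inside PIK3AP1, it was nearer to the start of TM9SF3, at 9.39 kb, than to that of PIK3AP1, at 54.2 kb.

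Both other PIK3AP1 regions lay upstream of the gene and over no protein-coding gene. The nearer one, at chr10:96726932-96744228, began 6.42 kb before the start and was the shortest of the 10 regions at 17.3 kb with 5 constituents. Its signal of 14631 ranked 1863, while its signal per bp of 0.846 ranked 210, at the 92.0 percentile. The farther one, at chr10:96757111-96795449, began 36.6 kb before the start and had a signal of 20300 at rank 1252 over 38.3 kb, or 0.530 per bp. PIK3AP1 had the nearest start to both, and LCOR also lay within 50 kb of the farther one. The gap between these upstream regions was 12.9 kb, just above the 12.5 kb within which the authors' program joined peaks.

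INPP5D (ENSG00000168918.14, chr2:233059967-233207903 on the plus strand) was the lipid phosphatase among the 9 genes. Its region, at chr2:233040184-233071312, contained the start and had the lowest signal of the 10 regions, 14160 at rank 1936 or 1.33 times the cutoff. It was 31.1 kb long with 8 constituents, and its signal per bp of 0.455 was at the 69.0 percentile. It covered 7.67% of the gene with exon 1 of 27, and 63.6% of it lay outside protein-coding genes, before the start. NGEF and NEU2 also lay within 50 kb of it.

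Of the kinases, AKT1 had no region and SGK1 had 1. SGK1 (ENSG00000118515.12, chr6:134169248-134318112 on the minus strand) held its region, chr6:134215537-134270154, wholly within the gene body. The signal was 20787 at rank 1202 over 54.6 kb, with 10 constituents and 0.381 per bp. It covered 36.7% of the gene and was 95.2% intronic, with exon 2 of 14. Its constituents filled 7.34% of its length, the lowest share among the 10 regions and at the 3.73 percentile of all regions. None of the 3 RefSeq starts of SGK1 lay in the region. The region lay 48.0 kb downstream of the canonical start, but 37.7 and 40.7 kb upstream of the other starts.

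FOXO1, the FOXO factor needed for the germinal center dark zone, had 3 regions. The gene is ENSG00000150907.10 at chr13:40555667-40666641 on the minus strand, 111 kb long. The strongest region, at chr13:40669543-40781595, ranked 379 with a signal of 40047, or 3.77 times the cutoff, over 112 kb with 27 constituents. Its edge lay 2902 bp upstream of the FOXO1 start, but it also contained the start of MRPS31, which encodes a mitochondrial ribosomal protein. The signal per bp was 0.357, at the 53.2 percentile, and 62.5% of the region lay outside protein-coding genes. SLC25A15 also lay within 50 kb of it.

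The intronic FOXO1 region, at chr13:40602410-40635629, had a signal of 14381 at rank 1903 over 33.2 kb, or 0.433 per bp. It began 31.01 kb downstream of the start, was 99.7% intronic and lay within 50 kb of no other protein-coding gene. The third region, at chr13:40487806-40558758, covered the last 3.09 kb of FOXO1 with its exon 3 and ran past the gene end over LINC00598, with 95.6% of its length outside protein-coding genes. Its signal of 14666 ranked 1859, and its 0.207 per bp was the lowest of the 10 regions, at the 14.3 percentile, although it held 26 constituents. FOXO1 had the nearest start to both regions. The gaps between the 3 regions were 43.7 and 33.9 kb.

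**Figure D1:**
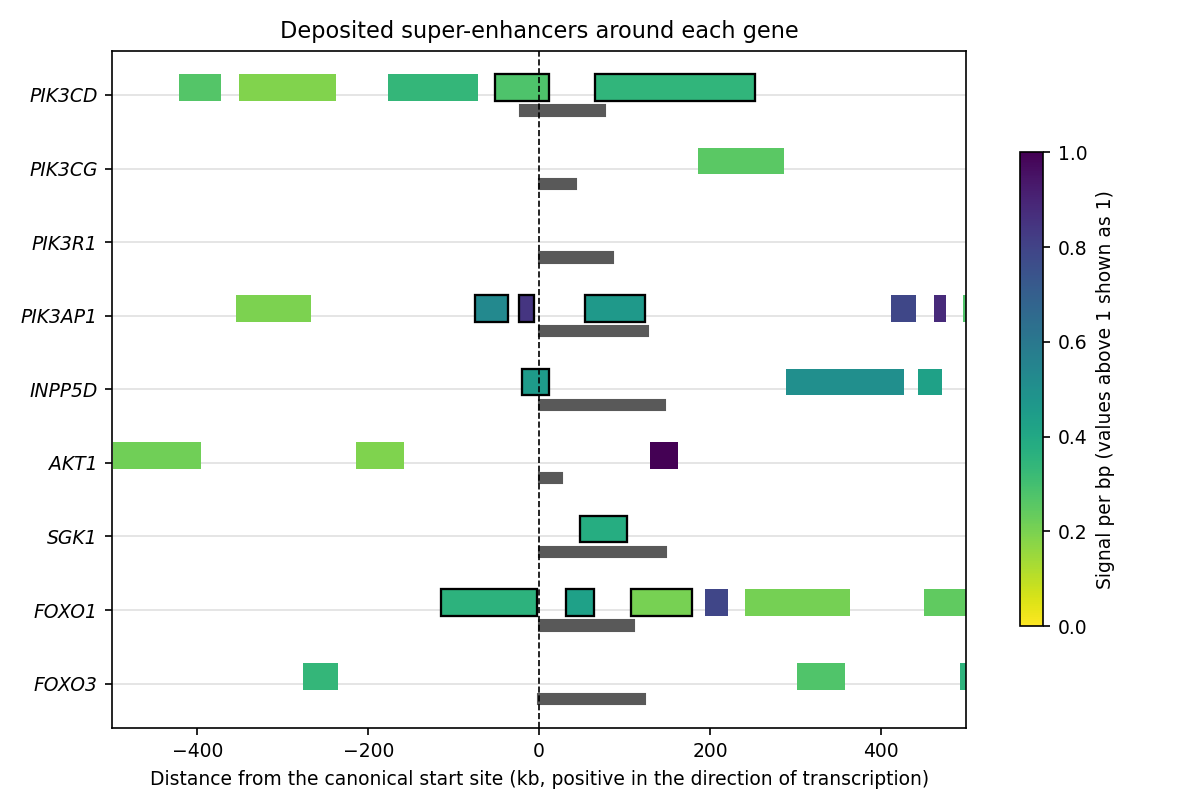
Deposited super-enhancers within 500 kb of the canonical start of each gene. The x axis is the distance from the start in kb, positive in the direction of transcription; grey bars are gene bodies, coloured bars are regions shaded by signal per bp, and black outlines mark the 10 regions within 50 kb of the gene. The dense region of PIK3AP1 lies 6.42 kb before the start, and no region is drawn for PIK3R1.

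Over the 10 regions the signal ranged from 14160 to 64794, a 4.58-fold spread, with a median of 19112.5 beside 19736 over the table. In signal, 5 of the 10 were at or above the table median. In signal per bp, 8 of the 10 were above the median of 0.343, and their median was 0.407. The median length was 59.2 kb against 60.7 kb in the table, and the median number of constituents was 11 against 16. Constituents filled a median of 11.6% of the length against 11.2%. Together these regions held 0.376% of the summed signal of the table and 0.382% of its regions.

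**Figure D2:**
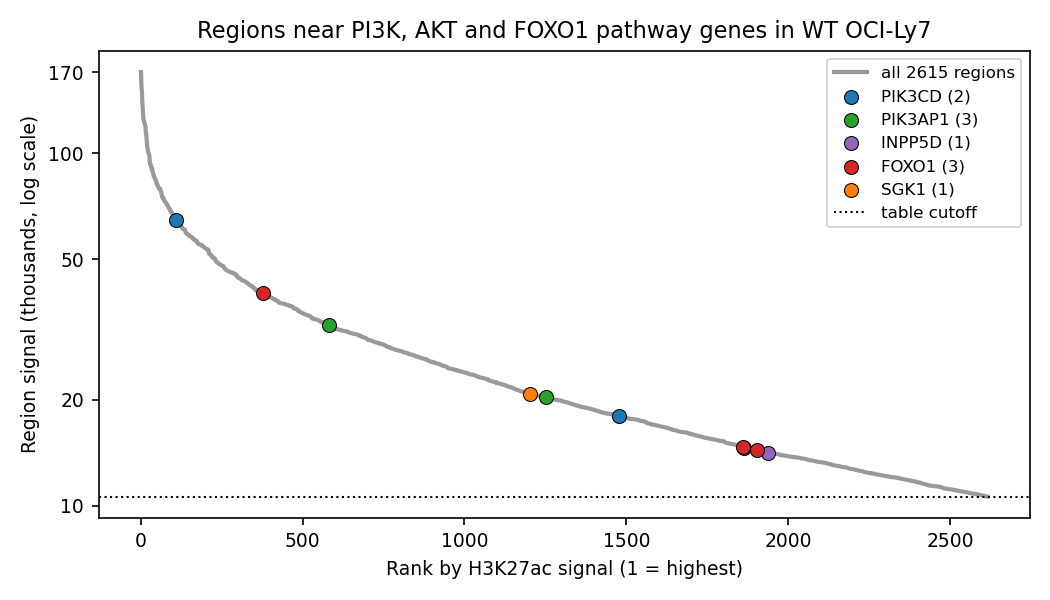
Signal of each region against its rank among the 2615 super-enhancers. The y axis is the signal divided by 1000 on a log scale, the grey line is the whole table, points are the regions of the 5 genes and the dotted line is the cutoff of 10617. The points run from rank 108 for PIK3CD to rank 1936 for INPP5D, and the points of FOXO1 at rank 1859 and PIK3AP1 at rank 1863 overlap.

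Position relative to the genes differed among the 10 regions. The gene body was overlapped by 7, while 3 lay beside it, namely both upstream regions of PIK3AP1 and the strongest of FOXO1. The start of the gene itself lay in 2 regions, those at PIK3CD and INPP5D, and 4 of the 10 regions held the start of some protein-coding gene, as did 1173 of 2615 regions of the table, or 44.9%. Of the 10, 2 lay over no protein-coding gene, beside 11.6% of the table. The gene to which a region was assigned had the nearest start in 7 of 10 cases, the exceptions being the strongest regions of PIK3CD, PIK3AP1 and FOXO1. Thus the region with the highest signal at each of these 3 genes was nearer to the start of a neighbour.

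Summed over the regions within 50 kb, the signal was 82720 for PIK3CD, 69094 for FOXO1, 67424 for PIK3AP1, 20787 for SGK1 and 14160 for INPP5D. Among the 6140 protein-coding genes with a region, these sums were at the 94.7, 91.1, 90.8, 42.9 and 22.7 percentile in the same order. A gene with more regions has a larger sum by construction, and PIK3CD shares most of its sum with CLSTN1 and CTNNBIP1.

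**Figure D3:**
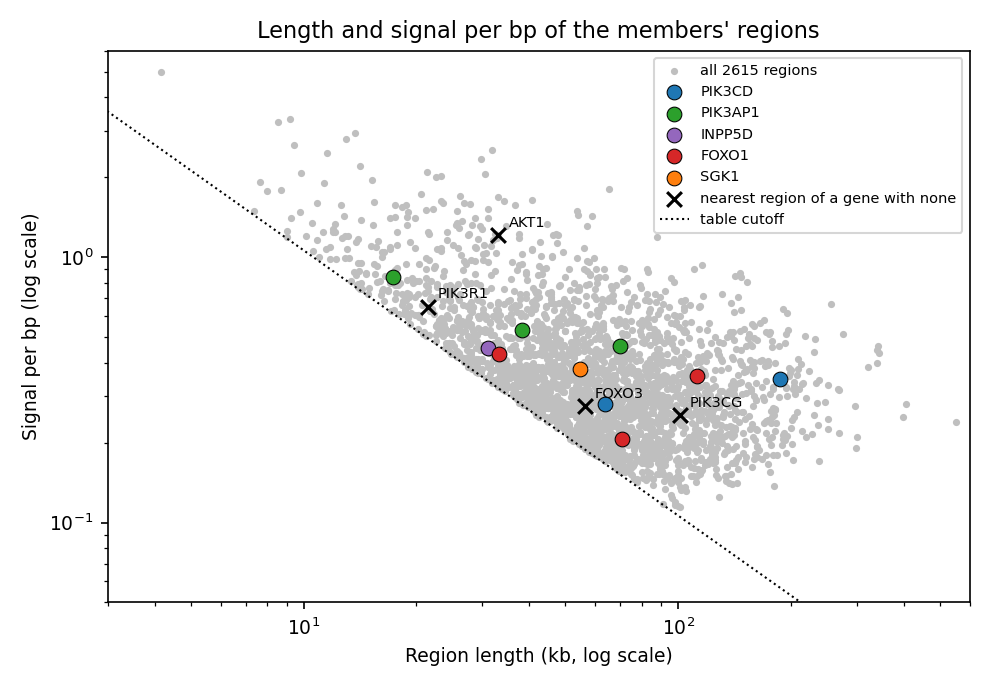
Length of each region against its signal per bp. The x axis is the length in kb and the y axis the signal per bp, both on log scales; grey points are all regions, coloured points the 10 regions of the 5 genes, crosses the nearest region of each gene with none, and the dotted line is the table cutoff. The nearest region of AKT1 has 1.21 per bp, above all 10 coloured points, whose highest is 0.846 at PIK3AP1.

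The 4 genes without a region differed in how far away the nearest one was. PIK3R1 encodes p85 alpha, the regulatory subunit that stabilizes p110 (ENSG00000145675.16, chr5:68215740-68301821 on the plus strand). Its nearest region, chr5:67200649-67222076, lay 994 kb upstream, had a signal of 13932 at rank 1977 and was closest to the start of CD180, at 3.85 kb. This distance was at the 80.5 percentile of all protein-coding genes, whose median was 182 kb. No region lay within 500 kb of the PIK3R1 start, as for 32.1% of protein-coding genes.

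PIK3CG encodes p110 gamma, the catalytic subunit that acts with G protein-coupled receptors (ENSG00000105851.11, chr7:106865278-106908980 on the plus strand). Its nearest region, chr7:107051724-107152523, lay 143 kb downstream inside PRKAR2B, with a signal of 25613 at rank 898 and 0.254 per bp. AKT1, the serine-threonine kinase itself, is ENSG00000142208.18 at chr14:104769349-104795751 on the minus strand. Its nearest region, chr14:104632746-104665854, lay 103 kb beyond the gene end, over the non-coding LINC02280 and no protein-coding gene. It had a signal of 40074 at rank 377, about that of the strongest FOXO1 region at 40047, but over 33.1 kb against 112 kb. With 1.21 per bp it ranked 88 in signal per bp, and the nearest protein-coding start was that of INF2 at 23.8 kb.

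FOXO3, a FOXO factor related to FOXO1, is ENSG00000118689.15 at chr6:108559835-108684774 on the plus strand. The region nearest to its body, chr6:108862676-108918916, lay 178 kb downstream inside ARMC2, with a signal of 15449 at rank 1766. A region nearer to the start, at rank 2058, lay 236 kb upstream. For all 4 genes, having no region means only that none above the cutoff lay within 50 kb; H3K27ac below the cutoff was not analysed here.

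Within 50 kb of the gene body, 30.7% of protein-coding genes had a region, against which the 5 of 9 are to be read. A region over the gene body was found for 17.3% of genes and for 5 of the 9. With 3 or more regions, PIK3AP1 and FOXO1 were 2 of 223 such genes, which are 1.12% of all protein-coding genes. Gene length was also compared. Protein-coding genes were split into 5 length classes of equal size. In the longest class, from 90.8 kb, a region was found for 33% of genes and for 5 of the 6 genes examined there, FOXO3 being the exception. In the class of 40.0 to 90.8 kb the share was 35.8%, and neither PIK3R1 nor PIK3CG had one. In the class of 18.5 to 40.0 kb the share was 33.2%, and AKT1 had none. With 9 genes that were chosen with earlier results of these data known, these counts describe the genes and no more.

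Over the wider neighbourhood of 500 kb on each side of the start, the median protein-coding gene had 1 region and a summed signal of 27857. PIK3AP1 had 7 regions with 130470, at the 98.6 percentile of number. The region at rank 1043 was 1 of these 7, and it also lay within 50 kb of BLNK, another pathway gene. FOXO1 had 6 with 146230 and PIK3CD 5 with 152771. INPP5D had 3 with 95864, of which the region at rank 88, 289 kb downstream of the start, carried 69775. AKT1 had 3 with 73445 and FOXO3 had 3 with 41969, while PIK3CG had 1 with 25613, SGK1 had 1 with 20787 and PIK3R1 had none. The region inside SGK1 was thus the only one within 500 kb of its start.

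The other genes of the pathway were taken from lists by role, 67 genes in all with the 9 included. A region within 50 kb was found for 29 of 67, or 43.3%, and for 24 of the 58 others, or 41.4%, beside 30.7% of all protein-coding genes. Over the gene body itself the count was 16 of 67, or 23.9%, beside 17.3%.

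Among class I PI3K subunits 3 of 9 had a region: PIK3CD and the regulatory subunits PIK3R3, with 20119 at rank 1270, and PIK3R2, with 11968 at rank 2344. PIK3CA, PIK3CB, PIK3R5 and PIK3R6 had none, like PIK3CG and PIK3R1. Of the adaptors and coreceptors 3 of 8 had one. Beside PIK3AP1 these were GAB1, a docking adaptor, with 31380 at rank 624 over its body, and BLNK, the B-cell linker, with 3 regions. Of the BLNK regions 2 lay over the gene body. The strongest BLNK region had 23220 at rank 1043 and lay 7.66 kb from the gene body, over DNTT. The coreceptor genes CD81 and CR2 had none.

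Of the phosphoinositide phosphatases 3 of 6 had a region. INPP4A, a 4-phosphatase, had the strongest with 48102 at rank 250 over its body, INPP5K had 22952 at rank 1063, and INPP5D had the weakest. Among kinases and their activators 4 of 11 had one. These were MTOR, with 30551 at rank 672 over its body, PDPK1, the kinase that activates AKT and SGK1, with 29891 at rank 696, SGK1, and MAPKAP1, an mTORC2 subunit, with 15461 at rank 1765. AKT2 had none, like AKT1.

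The inhibitors of PI3K and AKT had a region in 4 of 5 cases, none of them over the gene body. The phosphatase gene PHLPP2 had 22047 at rank 1120, PIK3IP1, which binds p110, had 22019 at rank 1123, the pseudokinase gene TRIB3 had 12272 at rank 2274 and PPP2CA had 12120 at rank 2308. AKT substrates and mTORC1 genes had one in 3 of 9 cases, GSK3A with 18135, BAD with 17563 and MDM2 with 12358. Of the FOXO factors only FOXO1, of 4, had a region, and FOXO4 and FOXO6 had none.

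FOXO target genes of lymphocytes had a region in 8 of 15 cases. The highest-ranked was that of CITED2, which encodes a CREBBP-binding regulator, with 70333 at rank 86 and 1.08 kb from the gene. CXCR4, the chemokine receptor of dark zone B cells, had 50462 at rank 225. IL7R had 30918 at rank 648 and BCL2L11, which encodes the death factor BIM, had 22043 at rank 1121, both over the gene body. KLF2 and CCR7 were among the 7 without.

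**Figure D4:**
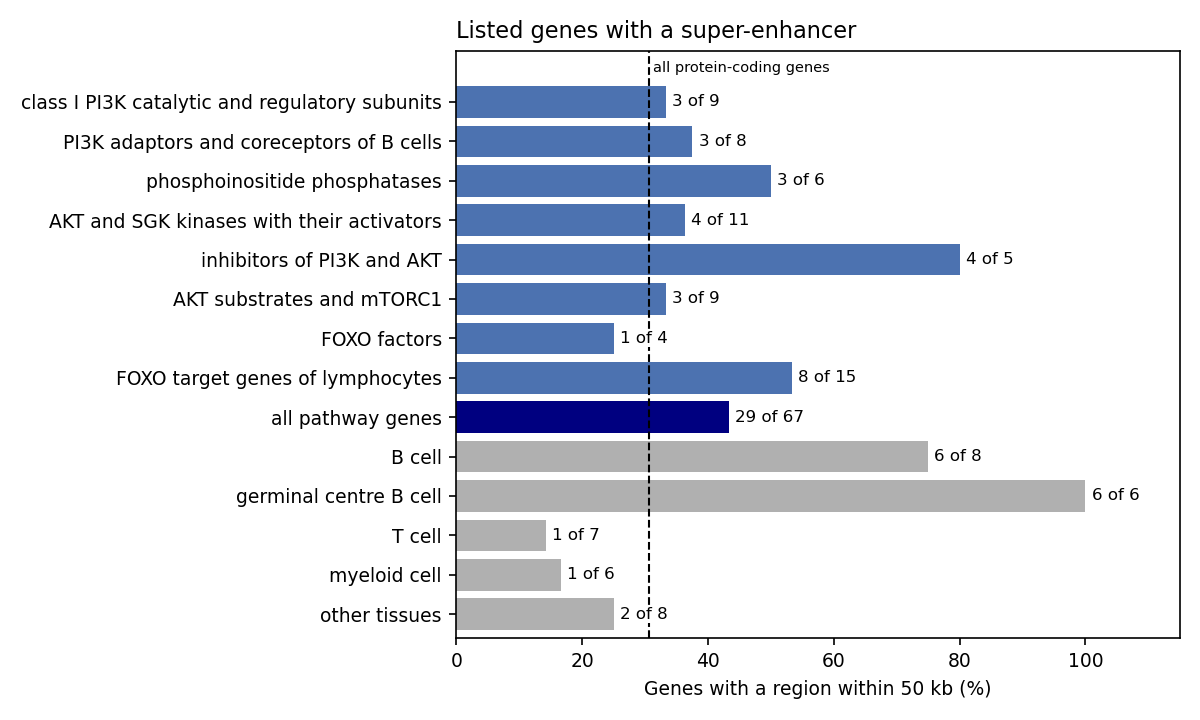
Share of the genes of each list with a super-enhancer within 50 kb of the gene body. The x axis is the share in percent, blue bars are pathway lists, the dark bar is all pathway genes, grey bars are cell type markers, numbers are genes with a region of all genes in the list, and the dashed line is the 30.7% of all protein-coding genes. Germinal center B cell markers are at 6 of 6 and FOXO factors at 1 of 4.

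Windows of 401 bp outnumbered the constituents in 4 of the 10 regions, the same 4 that held a protein-coding start. The excess was 2 windows in the PIK3CD region with the PIK3CD start and in the FOXO1 region with the MRPS31 start, and 1 in the PIK3CD region with the CLSTN1 start and in the INPP5D region. It was 0 in the other six and in the nearest regions of the 4 genes without one. Across the table an excess was present in 1067 of 1169 regions with a protein-coding start, or 91.3%, and in 237 of 1440 without, or 16.5%. No region had fewer windows than constituents. The authors left out peaks within 2.5 kb of a start, and the part of this step in the excess was not tested.

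In base composition the 10 regions had a median GC content of 43.2%, from 40.5% in the FOXO1 intron to 53.4% at the PIK3CD start, against a median of 45.7% over the table. Only 3 of the 10 were above that median, both PIK3CD regions and that of INPP5D. All 3 regions of FOXO1 and the SGK1 region lay between 40.5% and 42.5%.

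Motif matches per kb in the 10 regions were close to those of the table. The median was 0.122 for FOXO in both, 0.158 against 0.160 for AP-1, 0.0626 against 0.0511 for PU.1, 0.0344 against 0.0369 for ETS and 0.106 against 0.120 for the E-box. There were 83 FOXO, 100 AP-1, 41 PU.1, 26 ETS and 73 E-box matches in all. The INPP5D region had 4 PU.1 matches in its 31.1 kb, or 0.128 per kb, at the 96.6 percentile. The same region had 2 AP-1 matches, at the 3.73 percentile, and both values rest on few matches. Per kb, FOXO matches ran from 0.0157 in the PIK3CD region with the start (1 match) to 0.186 in the PIK3AP1 body region (13 matches). By number the highest was 28, in the long PIK3CD region. The 3 FOXO1 regions held 17, 6 and 5 FOXO matches.

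All 9 genes were in the RefSeq promoter table, with 20 promoters, of which only the 1 of INPP5D and 1 of the 3 of PIK3CD had a start inside a region. In the 250 bases before the start, PIK3AP1 held an E-box, PIK3CG and INPP5D a PU.1 match each, and 1 of the 4 FOXO3 promoters an AP-1 match. The promoters of FOXO1, AKT1, SGK1, PIK3R1 and PIK3CD held none of the 5 motifs. Over all 35116 promoters of the table the shares with a match were 2.98% for FOXO, 4.20% for AP-1, 2.17% for PU.1, 8.52% for ETS and 6.34% for the E-box.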

How the data were processed

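CUT&RUN libraries of H3K27ac, H3K4me1 and H3K4me3 from OCI-Ly7 clones were aligned to hg38 by the authors, who used IgG controls for each genotype and scaled depth to promoter reads. SEACR gave their peaks, MACS2 their summits, and ROSE was applied to H3K27ac reads of both WT libraries combined. ROSE joined peaks within 12.5 kb, left out those within 2.5 kb of a start (starts of non-coding RNA were not considered) and summed the signal over each joined region. The deposited signal is this sum, and its unit was not stated. The authors state only an approximate sequencing depth per sample and no read counts of regions, so the reads behind a value are unknown. The other deposited columns hold the number of constituents, their summed length, the rank and a flag. GEO's processing notes of the submitters also name DiffBind 3.6.1 and DESeq2. Whether either had a part in making the constituent peaks was not stated.

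Regions were joined to GENCODE version 44 by overlap, with the canonical transcript as the start. Signal per bp is the signal divided by the region length, and a percentile is the share of all values below a value, with ties counted by 0.5. Motif letters were searched in hg38 and in the RefSeq promoter table. Python 3.11.15, numpy 2.4.6, pandas 2.3.3 and matplotlib 3.10.9 were used, and the joins were tested on simulated data. The 9 genes, the pathway and marker lists and the alternatives (other windows around the gene, a higher signal limit, a minimum overlap, other ranking measures) were chosen with earlier results of these data known. By rule, all 9 genes were named, every gene with a region in lists with at most 6 of them and otherwise the 5 highest-ranked, and the genes overlapped by or nearest to a region. Genes of the lists named as having no region fall outside this rule and were chosen after their values were seen. Some results of the lists and some sequences are not reported here.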

Additional observations from a re-analysis of the deposited data

How the results depend on the processing

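No paired analysis was possible because both WT libraries were merged into a single deposited column, and for the same reason leaving out either library was not run. The number of the 9 genes with a region was 5 with the gene body alone and with extensions of 10, 25, 50 and 100 kb, with an overlap of at least 1000 bp, and within 50 kb of the most 5′ start. It was 4, without INPP5D, when only regions at or above the median signal were kept. The share of all protein-coding genes with a region moved under the same settings. This share was 17.3% with the gene body alone, and 20.8%, 25%, 30.7% and 39.7% with extensions of 10, 25, 50 and 100 kb. For the minimum overlap it was 30.5%, around the most 5′ start 25.9%, and with regions at or above the median signal 16.9%. AKT1, at 103 kb from its nearest region, lay just outside the widest extension. Pathway genes with a region fell to 16 with the gene body alone and 18 with the upper regions, and all protein-coding genes to 3445 and 3365. The best region of each gene was chosen anew under each ranking measure, and 9 of the 10 alternative ranks moved by over 1.5 times. Ranked by signal per bp, the best region of PIK3CD was at 1278, FOXO1 at 882, INPP5D at 810 and PIK3AP1 at 210. At FOXO1 and PIK3AP1 this was another region than that with the highest signal, which ranked 1223 and 789 by signal per bp. The median signal of the regions over a gene body was 17925. No read count of a region and no replicate spread was known, so no difference between regions can be set against error.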
